A study of Homo sapiens with 12 samples.

Results

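The genes described here encode the core histones H2A, H2B, H3 and H4 and the linker histones H1 of NB4 cells, an acute promyelocytic leukemia cell line. A probe set was taken where the array annotation gave it 1 gene and that gene's current symbol began with H1-, H2AC, H2BC, H3C or H4C, or its older symbol was of the HIST1, HIST2 or HIST3 kind, and pseudogenes were left out. This gave 60 probe sets for 60 genes, of 19158 probe sets with 1 gene, and 60 of the 76 protein-coding genes that RefSeq lists under these names. They comprise 9 H1, 14 H2A, 16 H2B, 9 H3 and 12 H4 genes. Of the remaining genes, 14 are named only on probe sets shared by several genes, and the other two are not analysed here.

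Total RNA was hybridised to 12 Affymetrix ST arrays in 4 groups of 3 arrays. The knockdown cells carried lentiviral shRNAs against the long noncoding RNA HOTAIRM1, in 3 arrays after all-trans retinoic acid (ATRA, 0.5 uM for 96 hours, which drives NB4 cells to granulocytic maturation) and in 3 arrays untreated; each 3 are shRNA1 replicates 1 and 2 and 1 RNA of shRNA2. The control cells gave 3 arrays after the same ATRA treatment and 3 untreated, each from 1 RNA of wild type NB4 cells and scrambled shRNA replicates 1 and 2. The shRNA lines were sorted by GFP and grown from single cells on soft agar, and the labels do not say whether replicates of 1 shRNA are separate clones; p-values therefore measure the spread among these RNAs. Values below are log2 levels in the order shRNA1 replicate 1, shRNA1 replicate 2 and shRNA2 for knockdown cells, and wild type, scrambled replicate 1 and scrambled replicate 2 for control cells.

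In a nucleosome DNA is wound round an octamer of H2A, H2B, H3 and H4, and H1 binds the linker DNA between nucleosomes. Most of these genes lie in clusters, are transcribed in S phase when new chromatin is assembled, and make short messages that end in a stem-loop bound by SLBP in place of a poly(A) tail. Some of them, H2BC12 and H2BC21 among others, also make polyadenylated messages in cells that stop dividing, and a few members are known from testis or oocytes.

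Of the 60 members, 49 lie on chromosome 6, 31 of them in the large cluster and 18 in the small one, and 7 lie on chromosome 1, 2 on chromosome 3 and 2 on chromosome 12. H2A and H2B genes often stand head to head and share the stretch between their starts. The promoter sequences of 5 members are shown because they carry the largest rise, the largest fall and its head-to-head partner, and the linker and H4 genes with the smallest p of their class. They are the 160 bases before the annotated start, from RefSeq (GRCh38.p14), written 5′ to 3′ on the gene's strand. Capitals mark the octamer ATTTGCAT, the TATA box TATAAA, the CCAAT box and the H1 box AAACACA on either strand. The windows are chr6:27146859-27147018 (minus strand) for H2BC12, chr6:27814862-27815021 (plus strand) for H2BC14, chr6:27814778-27814937 (minus strand) for H2AC14, chr6:27867589-27867748 (minus strand) for H1-5 and chr6:26189113-26189272 (minus strand) for H4C4.
H2BC12: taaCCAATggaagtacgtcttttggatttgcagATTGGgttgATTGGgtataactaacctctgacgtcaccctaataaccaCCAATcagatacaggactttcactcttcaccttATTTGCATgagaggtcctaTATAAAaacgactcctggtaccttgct
H2BC14: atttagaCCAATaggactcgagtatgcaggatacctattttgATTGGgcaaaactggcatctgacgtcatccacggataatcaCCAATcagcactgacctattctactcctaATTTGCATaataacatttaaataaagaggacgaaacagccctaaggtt
H2AC14: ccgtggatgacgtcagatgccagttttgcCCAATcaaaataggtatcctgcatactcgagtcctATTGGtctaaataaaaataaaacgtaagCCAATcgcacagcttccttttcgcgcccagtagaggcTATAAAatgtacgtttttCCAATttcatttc
H1-5: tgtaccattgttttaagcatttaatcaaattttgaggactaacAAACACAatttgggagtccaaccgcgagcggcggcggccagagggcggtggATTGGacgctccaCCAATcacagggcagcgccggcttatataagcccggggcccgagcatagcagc
H4C4: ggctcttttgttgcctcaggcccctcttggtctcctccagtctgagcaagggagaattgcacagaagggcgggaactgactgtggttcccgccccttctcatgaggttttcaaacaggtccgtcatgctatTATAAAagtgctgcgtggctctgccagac
In 250 bases before the start, with either strand searched, the octamer occurred in 10 of 13 H2A and 13 of 16 H2B genes with a listed promoter and in none of the H1, H3 and H4 genes, against 2.0% of all 27305 genes with a promoter in the table. The AAACACA box occurred in 7 of 9 H1 genes and in no core histone gene, against 6.0% of all genes. CCAAT was found in 47 of the 55 members with a promoter but in 3 of 10 H4 genes, against 37.0% of all genes, and TATAAA in 36 of 55, against 13.0%. No match of 1 motif shared bases with a match of another. The starts of head-to-head H2A and H2B genes lie 215 to 248 bases apart, within the 250 bases searched. A match between them can therefore be counted for both genes, so the H2A and H2B counts are not independent. The octamer printed for H2BC14 lies in the stretch it shares with H2AC14, beyond the bases printed for H2AC14. A match is a description of the letters only.

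One library has to be named before the results. On the first principal component, which held 65.9% of the variance, the untreated scrambled replicate 2 array lay at -10.8, against -41.72 to -32.89 for the other untreated arrays. All 5 measured markers of maturation under ATRA (ITGAM, ITGAX, CD38, CYBB and TGM2) were higher in it than in them. TGM2 read 12.86, against 7.93 to 8.30 in them and 13.49 to 13.85 after ATRA, and ITGAX 9.95, against 7.81 to 8.38. Of the B cell genes, CD79A read 10.91, against 7.87 to 8.57 in them, and MS4A1 5.72, against 5.27 to 5.69. This array enters every ATRA change of the control cells. Its mean level over the 60 histone probe sets was 9.22, the same as in untreated scrambled replicate 1. Of the 7 measured myeloid markers, MPO measured 12.67 to 13.81 and PRTN3 11.55 to 13.49 over the 12 arrays. SPI1 measured 10.97 to 11.96, AZU1 9.30 to 11.03 and ELANE 8.88 to 9.35. CEBPE measured 8.23 to 10.02 and CTSG 7.56 to 11.45. The 4 T cell genes CD2, CD3D, CD3E and CD3G lay between 6.19 and 8.61, a range that CEBPE and CTSG overlap. The erythroid gene HBB lay between 6.59 and 6.98 and ALAS2 between 7.27 and 7.89. The level of HOTAIRM1 was not analysed here, so the knockdown itself was not checked.

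With ATRA many histone genes of the control cells fell, H2BC12 rose by 1.49 and H1-8 rose by 0.24. The H1-8 call was lost in 9 of the 12 fits that leave out 1 array. Of 60 members, 29 fell and 2 rose at an adjusted p under 0.05 (limma on 4 arm means, two-sided, Benjamini-Hochberg over 19158 probe sets), and 29 did not pass. Over all probe sets 20.7% were called lower and 14.9% higher. The median change of the members was -0.37 on the log2 scale, against 0.05 over all probe sets, and single members ran from -1.23 for H2AC14 to 1.49 for H2BC12. In 26 members every ATRA control array lay below every untreated control array, and in 2 above (23.3% and 24.9% of all probe sets). These are whole cultures, so fewer cells in S phase and less histone RNA in each cell cannot be told apart.

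The fall differed among the lines that make up the control group. The median change of the 60 members was -0.37 in scrambled replicate 1 and -0.56 in scrambled replicate 2, but -0.09 in the wild type cells. The change was below 0 in 53 and 52 of 60 members of the scrambled lines and in 41 of the wild type. Without both arrays of scrambled replicate 2, 14 members were called lower and the median change was -0.29, and without its ATRA array alone 17 were called. The count was 19 without the untreated wild type array and 39 without the ATRA wild type array.

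**Figure D1:**
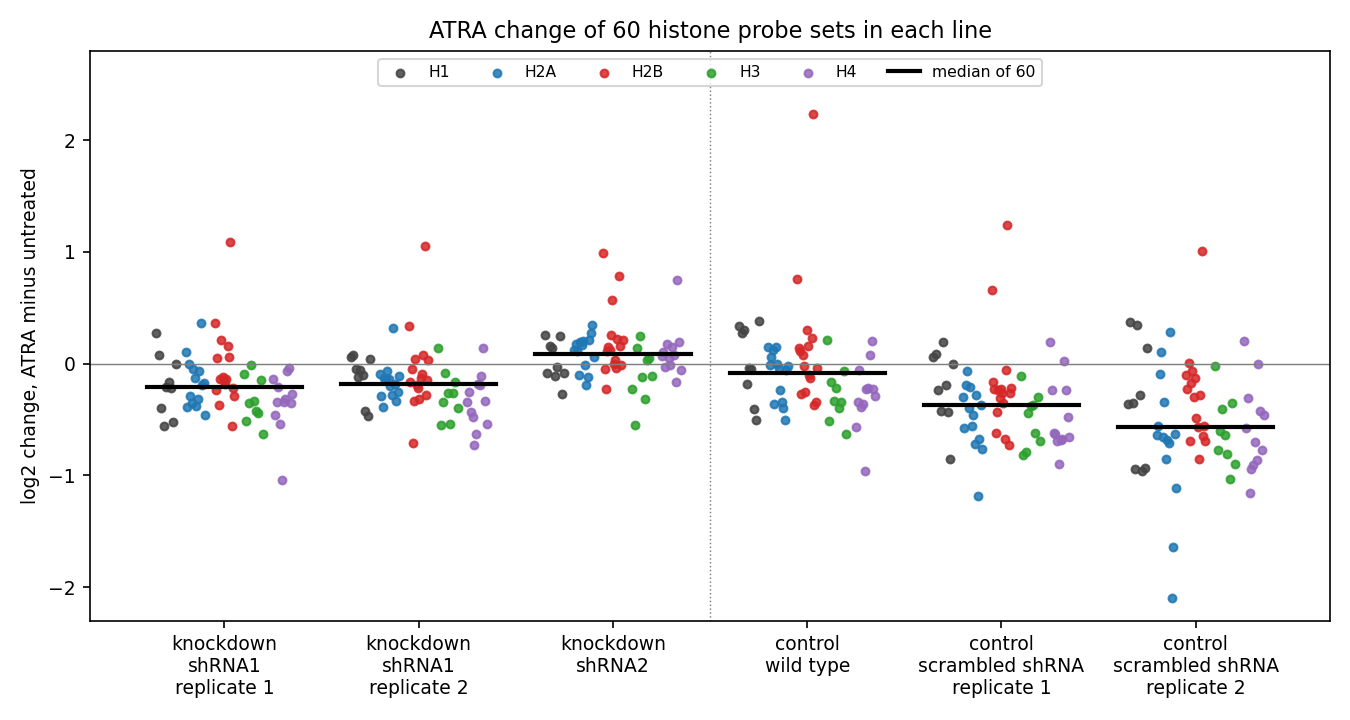
Each point is 1 of 60 histone probe sets, placed by its log2 change (ATRA minus untreated) in 1 line, with knockdown lines on the left, control lines on the right, colours for the 5 classes and a black bar for the median. The medians are -0.21, -0.18 and 0.09 in the knockdown lines and -0.09, -0.37 and -0.56 in the control lines, and the isolated red point at the top of most lines is H2BC12.

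By class, 7 of 9 H3 genes and 8 of 12 H4 genes fell in control cells, with median changes of -0.52 and -0.48. For H2A 7 of 14 fell (median -0.39), for H2B 4 of 16 fell and 1 rose (median -0.18), and for H1 3 of 9 fell and 1 rose (median -0.10). By position, 17 of 31 genes of the large chromosome 6 cluster and 11 of 18 of the small one fell, against 1 of 7 on chromosome 1 and 0 of the 4 on chromosomes 3 and 12. Over all probe sets 20.7% were called lower and 14.9% higher in control cells. The H2B counts, 4 of 16 lower and 1 of 16 higher, lay near or below these shares. Differences between classes or clusters were not tested.

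The linker histones split. H1-5, one of the abundant replication-dependent linker histones, gave the smallest p of all members. H1-5 measured 11.31, 11.37 and 11.55 in knockdown cells and 11.23, 10.92 and 11.04 in control cells after ATRA. Before ATRA H1-5 measured 11.84, 11.84 and 11.82 in knockdown cells and 11.73, 11.77 and 11.97 in control cells. All ATRA arrays lay below all untreated arrays in both kinds of cells. The change was -0.76 in control cells (SE 0.10, adjusted p = 0.000228). After ATRA H1-3 stood at 8.97, 8.89 and 9.10 in knockdown cells and 8.81, 8.54 and 8.49 in control cells. Untreated H1-3 stood at 9.19, 9.31 and 8.84 in knockdown cells and 9.22, 8.97 and 9.45 in control cells. H1-3, of the same family, fell by 0.60 in control cells (adjusted p = 0.00824), and its adjusted p was 0.0775 without both scrambled replicate 2 arrays. H1-2 fell by 0.52 (adjusted p = 0.0454), while H1-4 changed by -0.17 (adjusted p = 0.0714).

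H1-8, the oocyte linker histone, was called higher in control cells, by 0.24 (adjusted p = 0.0409). H1-8 measured 8.27, 8.34 and 8.30 in knockdown cells and 8.61, 8.52 and 8.53 in control cells after ATRA. Before ATRA H1-8 measured 8.18, 8.26 and 8.38 in knockdown cells and 8.34, 8.43 and 8.16 in control cells. The ATRA control arrays span 8.52 to 8.61, all above the untreated ones, of which the highest read 8.43. With the line as a fixed replicate block its adjusted p was 0.0641 and H2BC12 was the only member called higher. The call was also lost in 9 of the 12 fits that leave out 1 array.

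H1-6 and H1-7, testis linker histones, changed by 0.17 and 0.17 in control cells, neither past the threshold. After ATRA H1-6 stood at 6.10, 6.25 and 6.21 in knockdown cells and 6.38, 6.44 and 6.47 in control cells. Untreated H1-6 stood at 6.31, 6.30 and 6.32 in knockdown cells and 6.42, 6.25 and 6.12 in control cells. Control arrays after ATRA were above all ATRA knockdown arrays. H1-10, a linker histone outside the clusters on chromosome 3, changed by 0.20 in knockdown and 0.01 in control cells (adjusted p = 0.308 and 0.943). H1-10 measured 9.17, 8.86 and 9.07 in knockdown cells and 9.17, 8.84 and 8.69 in control cells after ATRA. Before ATRA H1-10 measured 8.89, 8.81 and 8.81 in knockdown cells and 8.84, 8.78 and 9.05 in control cells. Its groups overlap throughout.

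Among H2A genes, H2AC14 had the largest fall of all members. After ATRA H2AC14 stood at 6.93, 6.58 and 6.77 in knockdown cells and 6.30, 5.31 and 4.55 in control cells. Untreated H2AC14 stood at 6.57, 6.77 and 6.56 in knockdown cells and 6.70, 6.49 and 6.65 in control cells. The 6 untreated and 3 ATRA knockdown arrays lie within 6.49 to 6.93, the ATRA wild type array just below them, and the 2 ATRA scrambled arrays far below. The change in control cells was -1.23 (95% interval -1.91 to -0.54, adjusted p = 0.0105), a fold of 0.427. H2AC15 measured 11.44, 10.99 and 11.44 in knockdown cells and 10.98, 10.66 and 9.89 in control cells after ATRA. Before ATRA H2AC15 measured 11.62, 11.31 and 11.17 in knockdown cells and 11.49, 11.33 and 11.54 in control cells. H2AC15 has the same order of control arrays, wild type above scrambled replicate 1 above scrambled replicate 2, and changed by -0.94 (adjusted p = 0.00928). After ATRA H2AC12 stood at 7.82, 7.63 and 7.79 in knockdown cells and 7.71, 7.15 and 7.29 in control cells. Untreated H2AC12 stood at 8.14, 7.90 and 7.98 in knockdown cells and 7.95, 7.87 and 8.00 in control cells. H2AC12 fell by 0.56 (adjusted p = 0.00611), with no overlap between ATRA and untreated control arrays.

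H2AC17, H2AC4, H2AC8 and H2AC11 also fell, by 0.63, 0.47, 0.47 and 0.40. H2AC1, a testis H2A, changed by -0.17 in knockdown cells and 0.05 in control cells (adjusted p = 0.109 and 0.608). H2AC1 measured 6.20, 6.26 and 6.33 in knockdown cells and 6.29, 6.11 and 6.27 in control cells after ATRA. Before ATRA H2AC1 measured 6.49, 6.39 and 6.43 in knockdown cells and 6.17, 6.18 and 6.17 in control cells. All 3 untreated knockdown arrays of H2AC1 stood above all other arrays. After ATRA H2AC13 stood at 3.42, 3.64 and 3.55 in knockdown cells and 3.40, 3.45 and 3.73 in control cells. Untreated H2AC13 stood at 3.49, 3.33 and 3.67 in knockdown cells and 3.74, 3.73 and 3.45 in control cells. The values of H2AC13 overlap in all groups. Its mean level, 3.55, is at the 0.1 percentile of all probe sets with 1 gene, so this overlap says little. A brighter probe set, shared by H3C10 and H2AC13, fell by 0.68 in control cells (adjusted p = 0.00969). In knockdown cells that probe set changed by -0.20 (adjusted p = 0.467).

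H2BC12 rose, against the direction of most members. H2BC12 measured 10.13, 10.26 and 10.40 in knockdown cells and 10.97, 10.15 and 10.35 in control cells after ATRA. Before ATRA H2BC12 measured 9.04, 9.20 and 9.62 in knockdown cells and 8.75, 8.91 and 9.34 in control cells. All ATRA arrays lay above all untreated arrays in both kinds of cells, and the ATRA wild type array was the highest. The change was 0.98 in knockdown cells (95% interval 0.50 to 1.45, 1.97-fold, adjusted p = 0.00697) and 1.49 in control cells (1.01 to 1.97, 2.81-fold, adjusted p = 0.000431). It was called in both in each of the 22 alternative fits. As its printed promoter shows, it holds the octamer, TATAAA and CCAAT letters that members which fell also hold.

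H2BC21, another H2B gene, had the next largest values above 0 without passing the threshold, with 0.56 in knockdown cells (adjusted p = 0.0973) and 0.44 in control cells (adjusted p = 0.142). After ATRA H2BC21 stood at 9.87, 10.21 and 10.40 in knockdown cells and 10.17, 10.53 and 9.59 in control cells. Untreated H2BC21 stood at 9.52, 9.87 and 9.42 in knockdown cells and 9.41, 9.86 and 9.68 in control cells. In knockdown cells the lowest ATRA and the highest untreated array both read 9.87, and in control cells the ATRA array of scrambled replicate 2 lies within the untreated range. The knockdown change had an adjusted p of 0.0384 without the ATRA scrambled replicate 2 array. Shared probe sets also name H2BC21. A brighter one (mean 12.84), shared with H2BC19P and H2BC20P, changed by 0.02 in knockdown and -0.13 in control cells, neither called. Another (mean 8.30), shared with H2BC18 and H2BP1, changed by 0.26 in knockdown and 0.31 in control cells, neither called.

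Of the other H2B genes 4 fell and none rose in control cells, where 20.7% of all probe sets were called lower and 14.9% higher. H2BC14 measured 13.58, 13.62 and 13.68 in knockdown cells and 13.47, 13.49 and 13.17 in control cells after ATRA. Before ATRA H2BC14 measured 13.80, 13.78 and 13.69 in knockdown cells and 13.81, 13.75 and 13.73 in control cells. H2BC14 fell by 0.39 in control cells (adjusted p = 0.00602), and every ATRA array lay below every untreated array in both kinds of cells. With shRNA1 and scrambled arrays only, the control change of H2BC14 was -0.41 (adjusted p = 0.0563). After ATRA H2BC10 stood at 7.58, 7.44 and 7.47 in knockdown cells and 7.31, 6.79 and 6.77 in control cells. Untreated H2BC10 stood at 7.43, 7.53 and 7.51 in knockdown cells and 7.44, 7.46 and 7.62 in control cells. H2BC10 changed by 0.01 in knockdown cells (adjusted p = 0.975) and fell by 0.55 in control cells (adjusted p = 0.00620), where the change was -0.40 without both scrambled replicate 2 arrays (adjusted p = 0.0609). H2BC13 and H2BC9 also fell, by 0.58 and 0.34.

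Among the members are 9 head-to-head pairs of an H2A and an H2B gene. In control cells both genes fell in 1 pair, 1 gene fell in 4 pairs and neither was called in 4. Of all probe sets 20.7% were called lower there, and whether the genes of a pair change together was not tested. A pair counted with 1 fall is H2BC13 and H2AC13, where the H2AC13 probe set is very dim (mean 3.55). H2AC14 and H2BC14, with 245 bases between their starts, both fell, by 1.23 and 0.39. In H2BC11 and H2AC11 the H2B gene changed by -0.04 (adjusted p = 0.787) and H2AC11 fell by 0.40. In H2BC21 and H2AC20 the values were 0.44 and -0.26, neither past the threshold. H2AC12, which neighbours H2BC12, fell while H2BC12 rose; no promoter of H2AC12 was in the table. Of the 55 members with a promoter, the octamer was present in 8 of 25 members that fell and 15 of 30 others, TATAAA in 15 of 25 and 21 of 30, and CCAAT in 21 of 25 and 26 of 30. Here too a match between the starts of a pair can count for both genes.

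Of the H3 genes, which encode the same core histone or close forms of it, H3C12, H3C1 and H3C8 fell in both kinds of cells. H3C12 measured 9.55, 9.64 and 9.89 in knockdown cells and 9.51, 9.17 and 9.10 in control cells after ATRA. Before ATRA H3C12 measured 10.18, 10.04 and 10.00 in knockdown cells and 10.13, 9.86 and 9.99 in control cells. Each ATRA array lay below each untreated array of the same kind of cells. After ATRA H3C1 stood at 8.59, 8.27 and 8.64 in knockdown cells and 8.46, 8.06 and 8.28 in control cells. Untreated H3C1 stood at 9.10, 8.82 and 9.19 in knockdown cells and 8.97, 8.89 and 9.05 in control cells. The same separation was seen here. H3C8 measured 7.81, 7.67 and 7.85 in knockdown cells and 7.80, 7.76 and 7.56 in control cells after ATRA. Before ATRA H3C8 measured 8.23, 8.21 and 8.16 in knockdown cells and 8.20, 8.13 and 8.37 in control cells. H3C12, H3C1 and H3C8 fell by 0.38, 0.54 and 0.42 in knockdown cells (adjusted p = 0.0418, 0.0113 and 0.00495) and by 0.74, 0.70 and 0.53 in control cells (adjusted p = 0.000980, 0.00186 and 0.00100). With shRNA1 and scrambled arrays only, the knockdown change of H3C1 was -0.53 (adjusted p = 0.0664). After ATRA H3C10 stood at 8.36, 8.42 and 8.59 in knockdown cells and 8.34, 8.03 and 7.73 in control cells. Untreated H3C10 stood at 8.80, 8.68 and 8.56 in knockdown cells and 8.69, 8.65 and 8.76 in control cells. H3C10 changed by -0.23 in knockdown cells (adjusted p = 0.267) and fell by 0.66 in control cells, where the groups do not overlap. H3C3 measured 8.42, 8.12 and 8.47 in knockdown cells and 8.14, 7.86 and 7.76 in control cells after ATRA. Before ATRA H3C3 measured 8.43, 8.20 and 8.21 in knockdown cells and 8.47, 8.29 and 8.17 in control cells. H3C3 fell by 0.39 in control cells, and H3C2 and H3C7 fell by 0.52 and 0.42. H3-4, a testis H3, stood at 7.83, 7.89 and 7.74 in ATRA knockdown cells and 7.91, 7.76 and 7.84 in ATRA control cells, and untreated at 7.92, 7.75 and 7.97 in knockdown cells and 7.70, 7.87 and 7.87 in control cells, with all groups overlapping.

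Among H4 genes, all of which encode the same protein or nearly so, H4C4 had the smallest p. After ATRA H4C4 stood at 8.94, 9.02 and 9.33 in knockdown cells and 8.71, 8.72 and 8.29 in control cells. Untreated H4C4 stood at 9.98, 9.66 and 9.34 in knockdown cells and 9.67, 9.63 and 9.20 in control cells. The lowest untreated control value, 9.20, is that of scrambled replicate 2, and all ATRA control arrays lie below it. H4C4 fell by 0.56 in knockdown cells (adjusted p = 0.0456) and by 0.92 in control cells (adjusted p = 0.00277). The knockdown call was lost in 9 alternative fits, with adjusted p up to 0.170. H4C13 measured 12.42, 12.12 and 12.40 in knockdown cells and 12.31, 11.94 and 12.02 in control cells after ATRA. Before ATRA H4C13 measured 12.70, 12.65 and 12.46 in knockdown cells and 12.60, 12.60 and 12.48 in control cells. H4C13 fell by 0.47 in control cells, with all ATRA control arrays below all untreated ones. After ATRA H4C6 stood at 9.49, 9.36 and 9.39 in knockdown cells and 9.33, 8.81 and 8.83 in control cells. Untreated H4C6 stood at 9.81, 9.55 and 9.31 in knockdown cells and 9.55, 9.47 and 9.68 in control cells. H4C6 fell by 0.58 in control cells, where the groups do not overlap; without both scrambled replicate 2 arrays the change was -0.45 (adjusted p = 0.0911). H4C2 measured 10.21, 9.95 and 10.25 in knockdown cells and 10.04, 9.71 and 9.12 in control cells after ATRA. Before ATRA H4C2 measured 10.42, 10.44 and 10.06 in knockdown cells and 10.43, 10.34 and 10.28 in control cells. H4C2 fell by 0.73 there, and H4C3, H4C5, H4C14 and H4C1 by 0.67, 0.53, 0.39 and 0.33. H4C16, on chromosome 12, changed by -0.06. After ATRA H4C16 stood at 5.55, 5.07 and 5.52 in knockdown cells and 5.60, 5.61 and 5.67 in control cells. Untreated H4C16 stood at 5.69, 5.41 and 5.45 in knockdown cells and 6.18, 5.41 and 5.48 in control cells. Its highest value, 6.18, was in 1 untreated array, that of the wild type.

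**Figure D2:**
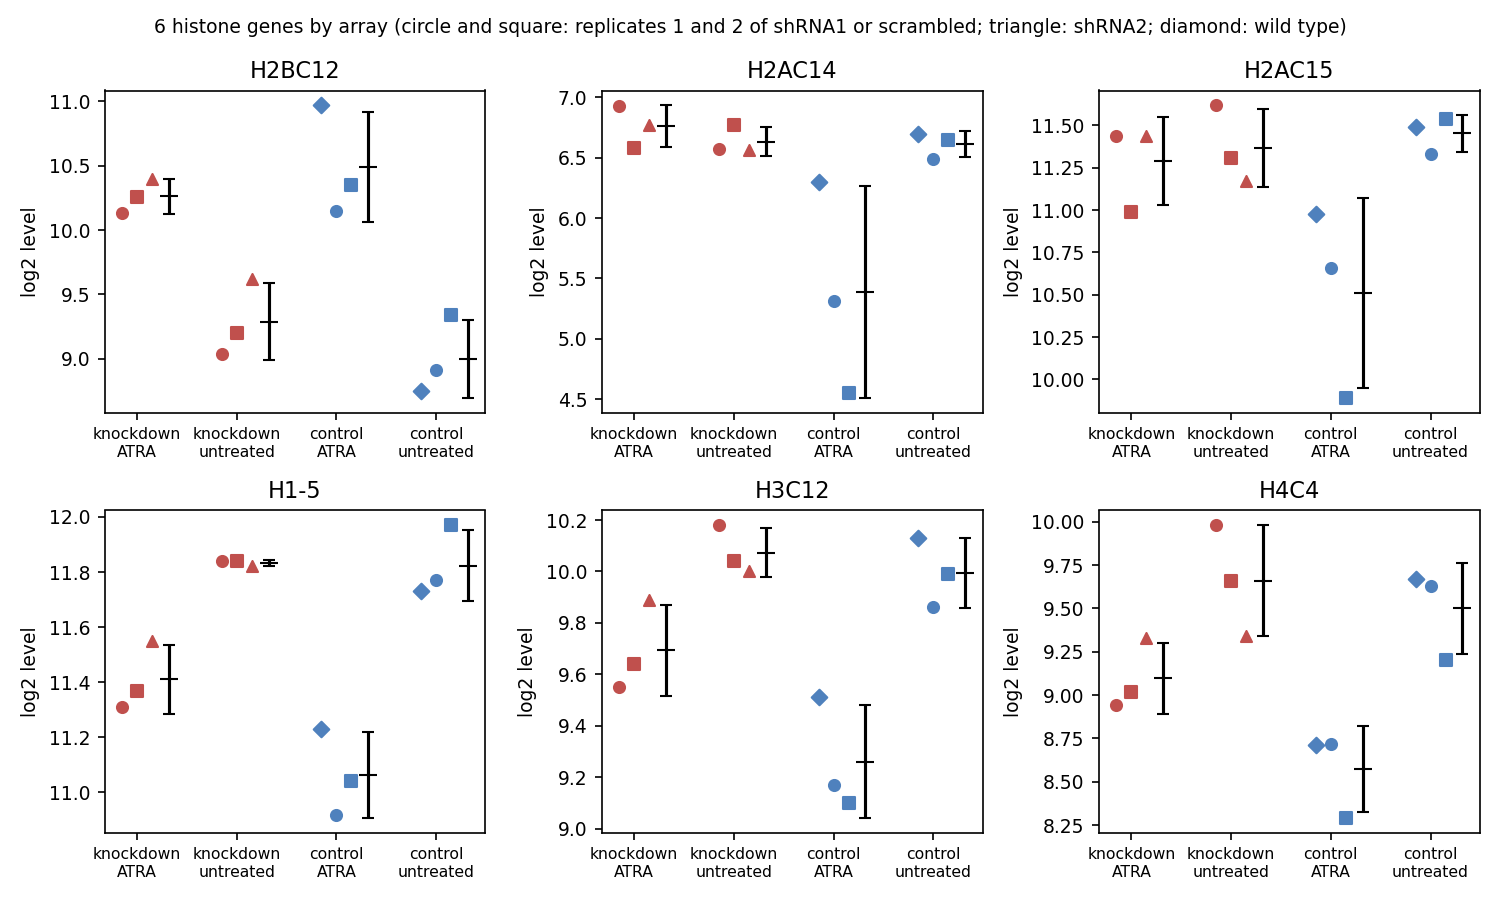
Log2 levels of 6 histone genes in each of 12 arrays, by arm, knockdown in red and control in blue, with the arm's mean and SD (n = 3) as a black bar beside the points; each panel has its own y axis, which does not start at 0. H2BC12 is higher after ATRA in both kinds of cells, and in H2AC14 and H2AC15 the ATRA scrambled arrays lie below the wild type and knockdown arrays.

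In the knockdown cells 5 members fell with ATRA and 1 rose, and 54 did not pass. Those that fell were H1-5, H3C8, H3C1, H3C12 and H4C4, all of which also fell in control cells, and the gene that rose was H2BC12. Over all probe sets 14.5% were called lower and 9.89% higher. The median change of the members was -0.12, against -0.03 over all probe sets. It was -0.21 and -0.18 in the shRNA1 lines and 0.09 in shRNA2. H2A genes gave no call in knockdown cells.

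A fall in control cells that is not called in knockdown cells, as for 24 members, is no test of a difference. The difference between the ATRA responses, knockdown minus control, was called for 0 of 60 members and 0% of all probe sets (limma, adjusted p under 0.05). At an unadjusted p under 0.05 there were 7 positive and 2 negative members, against 5.77% and 9.47% of all probe sets. The smallest adjusted p was 0.273, shared by H2BC10 (difference 0.56) and H2AC14 (difference 1.36, 95% interval 0.39 to 2.32). Of the 60 members, 48 had a positive difference, with a median over the 60 of 0.21 (0.12 to 0.34 in 22 alternative fits).

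**Figure D3:**
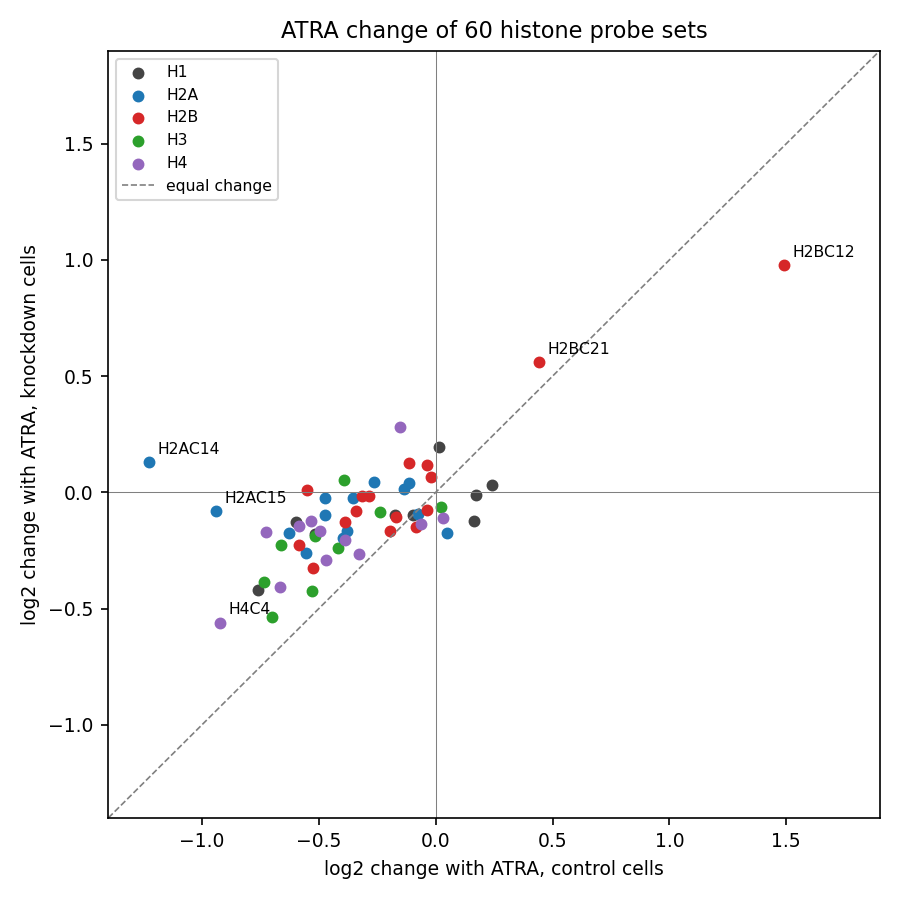
Log2 change with ATRA of the 60 histone probe sets in control cells (x axis) and knockdown cells (y axis), coloured by class, with the dashed line marking equal change. Above the dashed line lie 48 of 60 points, 46 of them left of 0, H2BC12 lies far to the upper right, and H2AC14 lies at the left edge with a knockdown change of 0.13.

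Before ATRA no histone gene was called between knockdown and control cells, as for 0% of all probe sets (limma, adjusted p under 0.05), and 1 of 60 members had an unadjusted p under 0.05, against 3.92% of all. That member was H2AC1, higher by 0.26 (adjusted p = 0.999). Differences ran from -0.17 to 0.29 with a median of 0.02. H2BC8 measured 8.76, 8.73 and 8.76 in knockdown cells and 8.70, 8.55 and 8.29 in control cells after ATRA. Before ATRA H2BC8 measured 8.94, 9.05 and 8.76 in knockdown cells and 8.53, 8.81 and 8.78 in control cells. H2BC8 differed by 0.21 (95% interval -0.04 to 0.46), and H2BC12 by 0.29 (-0.19 to 0.76).

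After ATRA no member was called either, against 0.0522% of all probe sets called higher and 0.00522% lower (limma, adjusted p under 0.05). Yet 50 of 60 members had a positive knockdown minus control difference, with a median of 0.25 against -0.03 over all probe sets. At an unadjusted p under 0.05, 24 members were higher and 2 lower, against 12.1% and 15.8% of all probe sets. All knockdown arrays lay above all control arrays in 15 members and below them in 4 (14.4% and 20.4% of all). With 3 arrays against 3 an exact permutation test cannot go below a two-sided p of 0.1. This comparison and the ATRA change of control cells share the 3 ATRA control arrays.

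The largest knockdown minus control difference among the members was that of H2AC14, 1.38 (95% interval 0.69 to 2.06, adjusted p = 0.0542), and that of H2BC10 was 0.54 (0.26 to 0.82, adjusted p = 0.0562). Without the ATRA wild type array these 2 members were called, with adjusted p of 0.0173 and 0.0191, and likewise without the untreated scrambled replicate 2 array (adjusted p = 0.0482 for both). For H1-5, H3C12 and H2AC15 the difference was 0.35, 0.43 and 0.78, each short of the threshold. With array weights H1-5, H3C12, H2AC14 and H2BC10 were called, with differences of 0.42, 0.50, 1.45 and 0.60 (adjusted p = 0.0416, 0.0446, 0.0315 and 0.0321). H2BC9 measured 12.30, 12.24 and 12.34 in knockdown cells and 12.22, 11.97 and 11.86 in control cells after ATRA. Before ATRA H2BC9 measured 12.44, 12.37 and 12.31 in knockdown cells and 12.32, 12.32 and 12.43 in control cells. In H2BC9, which differed by 0.28 (adjusted p = 0.0926), every ATRA knockdown array exceeded every ATRA control array. H2BC12 differed by -0.23 (-0.70 to 0.25).

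The 2 kinds of control cells gave different answers after ATRA. Against the scrambled arrays alone, the knockdown mean was higher in 54 of 60 members, with a median difference of 0.36. Against the single wild type array the median difference was -0.02 and 27 of 60 were positive. The wild type array itself exceeded the scrambled mean in 56 of 60 members, by a median of 0.37, and was at or above the lowest knockdown array in 46. Before ATRA the wild type and scrambled arrays differed by a median of 0.03. The 2 lines with a single RNA, shRNA2 and wild type, differed by a median of 0.06 after ATRA, and the 2 duplicated lines, shRNA1 and scrambled, by 0.34. The wild type is 1 array, so these are values without a test. The same counts were not made over all probe sets, so they are not shown to be particular to histone genes.

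The mean level over the 60 members shows the same order. After ATRA it was 9.14, 9.09 and 9.25 in knockdown cells and 9.18 in wild type, 8.86 in scrambled replicate 1 and 8.72 in scrambled replicate 2. Untreated arrays ran from 9.16 to 9.33. S phase genes, 19 measured genes such as PCNA, RRM1, MCM6 and CDC6 that serve replication or the cell cycle, did not follow that order. Their mean after ATRA was 10.13, 10.15 and 10.22 in knockdown cells, 9.45 in wild type and 9.86 and 9.65 in scrambled cells. Knockdown exceeded wild type in 19 of 19 of them, by a median of 0.71, and scrambled in 19 of 19, by 0.40, and wild type exceeded scrambled in 3 of 19. In the wild type ATRA array the mean of the S phase genes was thus the lowest of the 12 arrays, and the mean of the histone genes lay within the range of the ATRA knockdown arrays.

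**Figure D4:**
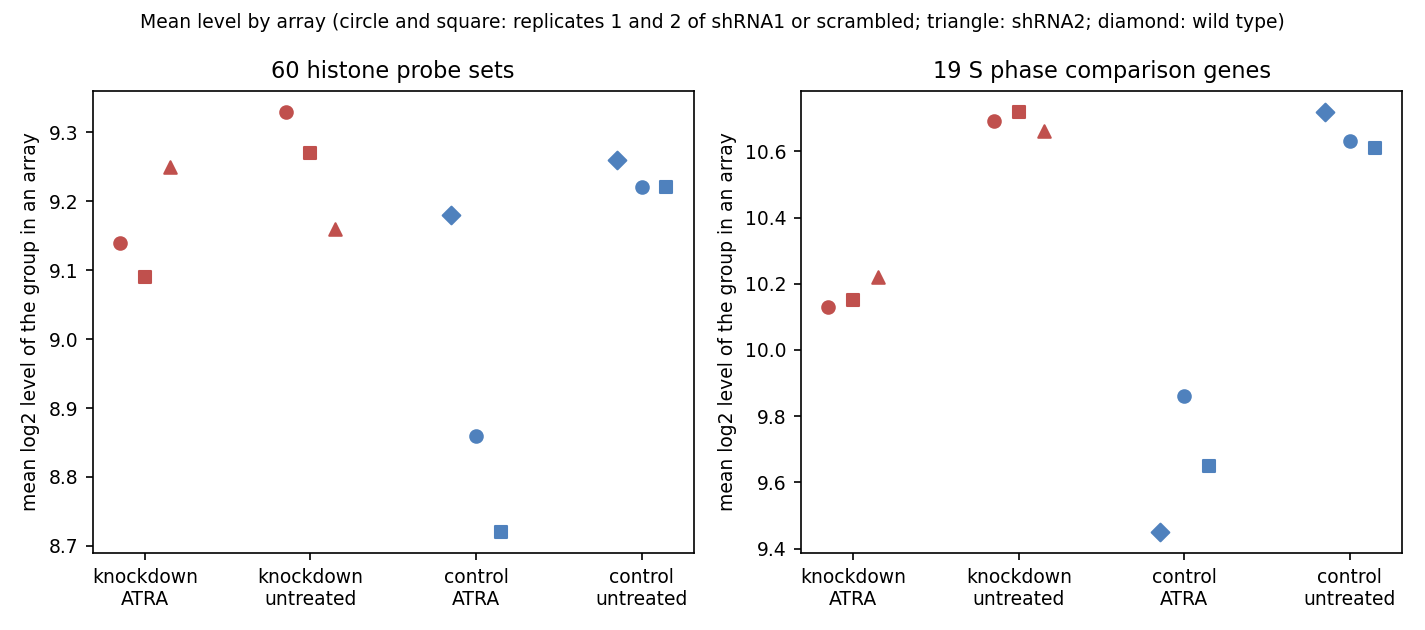
Mean log2 level of the 60 histone probe sets (left) and of 19 S phase genes (right) in each of 12 arrays, by arm, knockdown in red and control in blue; the y axes do not start at 0. The wild type ATRA array (diamond) lies at 9.18 among the knockdown ATRA arrays on the left and at 9.45, below all other arrays, on the right.

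Genes that serve DNA replication and histone supply fell as well. Of 19 S phase genes 12 fell with ATRA in knockdown cells and 19 in control cells (median -1.01). Of 26 probe sets for 23 chaperone and assembly genes, 14 fell in knockdown and 19 in control cells and none rose. With changes in control cells, they include SSRP1, a subunit of FACT (-1.08 in its brighter probe set), and NASP, an H3-H4 and linker histone chaperone (-0.96). Also among them are MCM2, a helicase subunit that also binds H3-H4 (-1.10), and IPO4, an importin of H3-H4 (-1.45). A dimmer SSRP1 probe set read 6.69, 6.73 and 6.71 in control cells after ATRA and 6.88, 6.81 and 6.52 untreated. Of 17 genes for histone transcription and message processing, 6 fell in knockdown and 11 in control cells. The shares of all probe sets called lower were 14.5% in knockdown and 20.7% in control cells. In control cells ZNF473, part of the U7 snRNP-dependent processing machinery, changed by -0.89, SLBP, the stem-loop binding protein, by -0.70, CPSF3, the cleavage endonuclease, by -0.51 and UPF1, which acts in histone message decay, by -0.50. After ATRA no gene of these lists was called between knockdown and control, and their medians were 0.49 for S phase genes, 0.23 for chaperones and 0.17 for processing.

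Histone genes outside the naming rule were measured too. Of 10 measured variant genes 2 fell in knockdown cells, against 14.5% of all probe sets. In control cells 4 of 10 fell and none rose, against 20.7% and 14.9% of all probe sets. Those that fell there were H2AX, H2AZ1, H3-5 and H2AZ2, by 0.43, 0.43, 0.40 and 0.28. The replacement gene H3-3B changed by -0.31 in control cells (adjusted p = 0.0769) and MACROH2A1 by -0.26 (adjusted p = 0.133).

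Members share sequence, and 17 probe sets name several genes that include 25 genes of the rule. With ATRA 0 of these 17 were called lower and 2 higher in knockdown cells, and 6 lower and 3 higher in control cells, with a median of -0.30 there. Of the 19158 probe sets with 1 gene, 14.5% were called lower and 9.89% higher in knockdown cells, and 20.7% and 14.9% in control cells. The calls of the 17 were adjusted over all 32321 probe sets. The values that follow are changes in control cells. Of the probe sets shared by H4C11 and H4C12, the brighter (mean 9.97) fell by 0.94. The dimmer (mean 3.33) changed by -0.33 (adjusted p = 0.0963). Of 3 probe sets for H3C13, H3C14 and H3C15, 2 fell, by 0.48 and 0.49, and 1 rose by 0.56. The probe set shared by H4C14 and H4C15 rose by 0.61, while the one given to H4C14 alone fell by 0.39. The probe set shared by H2BC12, H2BC12L, H2BC17 and H2BC5 changed by -0.38 (adjusted p = 0.0870), in the opposite direction to the 1.49 of the probe set given to H2BC12 alone. Reads of near-identical coding sequence by a probe set given to 1 gene were not tested, as probe sequences were not used here. Of the members, 12 are among the dimmest 33.3% of all probe sets by mean level, and 1 of these fell in control cells.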

How the data were processed

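Total RNA of 12 NB4 cultures was labelled as biotinylated cDNA with a whole-transcript kit and hybridised to Affymetrix ST arrays, per the labels' protocols. The deposited values are log2 levels per probe set, made by the authors with RMA, per the submitters' processing notes, which name RMA and limma without versions; settings and genome build are not given in the sources used here. The log2 values were used as deposited and ran from 2.67 to 14.63. GEO's platform annotation gave 1 gene to 19158 of 32321 probe sets, several to 1388 and none to 11775, and 19128 of the first were matched to RefSeq (GRCh38.p14) by identifier. All 19158 entered 1 limma fit (version 3.58.1, R 4.3.3) of 4 arm means with 8 residual degrees of freedom, eBayes, two-sided, with Benjamini-Hochberg adjustment over them and calls at an adjusted p under 0.05. The number of arrays limits the precision. The fit was tested on simulated data.

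The members and gene lists were chosen with earlier results of these data known. Named genes are, in each class, the 3 with the smallest p in the ATRA change of control cells and the 2 with the smallest p in each other contrast, the largest rise and fall with ATRA, and H1-10; other members named as examples were chosen after their values were seen. From the other lists the 4 with the smallest p are named. The labels tie arrays of 1 line before and after ATRA, so the line was also fitted as a block. Deviations of the same line's 2 arrays from their arm means correlated at -0.164 for wild type, -0.104 and 0.193 for scrambled, 0.154 and 0.213 for shRNA1 and 0.124 for shRNA2. Alternatives were 1 probe set per gene, all probe sets, without the dimmest 33.3%, quantile normalization, array weights, a variance trend, shRNA1 and scrambled only, both blocks, and leaving out each array, or both scrambled replicate 2 arrays, chosen after seeing the data. Some of the T cell, B cell, erythroid, myeloid and maturation markers, CD33, NCF1 and HBA1 among them, are not analysed here.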

Additional observations from a re-analysis of the deposited data

Results flagged for a closer look

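H2BC5, an H2B gene of the large chromosome 6 cluster, had ATRA changes above 0 in all 3 knockdown lines and below 0 in all 3 control lines, and neither mean change passed the threshold. The mean was 0.13 in knockdown cells (adjusted p = 0.414) and -0.11 in control cells (adjusted p = 0.384). By line the change was 0.21, 0.04 and 0.12 in the shRNA1 replicates and shRNA2, and -0.02, -0.24 and -0.07 in wild type and the scrambled replicates. The difference between the responses was 0.24 on the log2 scale, and limma gave it an adjusted p of 0.409. How many of all probe sets show the same split of lines was not counted. A brighter probe set that H2BC5 shares with H2BC12, H2BC12L and H2BC17 changed by -0.13 in knockdown cells (limma, adjusted p = 0.641). In control cells that probe set changed by -0.38 (adjusted p = 0.0870).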

How the results depend on the processing

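In 22 alternative fits no result of a named member reversed, and of 1202 values of named members 27 were no longer called and 11 became called. The count of members called lower with ATRA in control cells, 29, ran from 17 to 39 when 1 array was left out, was 14 without both scrambled replicate 2 arrays and lay between 21 and 38 in the other fits. Members called higher there, 2, ran from 1 to 2 with 1 array left out, were 3 with array weights, and were 1 with all probe sets, with shRNA1 and scrambled arrays only and with the fixed replicate block, where H1-8 was lost (adjusted p = 0.0641); neither block changed another call of a named member. In knockdown cells 5 members fell, which was 3 with quantile normalization or all probe sets, 8 with array weights and 3 to 6 with 1 array left out. Those that rose, 1, ran from 1 to 2 with 1 array left out and were 2 without both scrambled replicate 2 arrays. Knockdown minus control after ATRA gave 0 calls, 5 higher with array weights and 0 to 2 with 1 array left out. The cause of these changes was not tested. The median member change kept its sign in the fits run for both ATRA contrasts and for knockdown minus control after ATRA (0.14 to 0.36).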

Other observations

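Histone genes known from testis or oocytes, H1-6, H1-7, H1-8, H2AC1, H2BC1 and H3-4, were set beside the other 54 members; this list was made after values had been seen, so it has no test. In knockdown cells 0 of these 6 fell and their median ATRA change was -0.07, against 5 of 54 and -0.13 for the others. In control cells 5 of 6 changes were above 0, with a median of 0.11, against 4 of 54 and -0.39. Knockdown minus control after ATRA had a median of -0.09 over the 6 genes and 0.28 over the others.

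Of 7 measured promyelocytic and myeloid markers, the wild type ATRA array was the lowest of the 6 ATRA arrays for MPO, AZU1, PRTN3, CTSG and CEBPE and the highest for SPI1 and ELANE. Over all 19158 probe sets it was the lowest in 20.8% and the highest in 24.3%. The values of 2 of the 7, picked after values were seen, follow. PRTN3, the gene of proteinase 3, measured 12.71, 13.47 and 13.04 in knockdown cells after ATRA, and 11.55 in wild type and 13.26 and 13.30 in scrambled cells. MPO, myeloperoxidase, measured 13.37, 13.75 and 13.58 in knockdown cells, and 12.67 in wild type and 13.50 and 13.44 in scrambled cells.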
